A study of Mus musculus with 12 samples.

Results

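The genotype dependence of a macrophage's response to lipopolysaccharide (LPS) was measured for each gene as the LPS effect in Fes-/- cells minus the LPS effect in wild-type cells. An LPS effect is the log2 level under LPS minus the log2 level under PBS. The difference of both effects is an interaction, and a positive value means that LPS moved the gene farther up, or less far down, in Fes-/- cells. All 12 libraries of the series entered the measurement. Of 55487 genes in the count table, 15801 had enough counts to be tested, and these genes are the members described here.

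The cells were bone-marrow-derived macrophages, grown from mouse marrow in medium with macrophage colony-stimulating factor. They came from Fes+/+ (wild-type) or Fes-/- mice and received PBS or 1 µg/mL LPS for 4 hours. Each of the 4 groups held 3 libraries of poly-A RNA, labelled as biological replicates 1 to 3. The treatment protocol has no PBS step and names these cells as left without LPS, and how many mice stand behind a group is not stated, so p-values measure the spread between these cultures. What the Fes-/- allele removes was not analysed here.

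LPS, a component of the outer membrane of Gram-negative bacteria, is sensed by the receptor TLR4 with its partners MD-2 and CD14. One signalling arm, through the adaptor MyD88, leads to NF-kB and MAP kinases and to cytokines such as TNF. The other, through TRIF, leads to interferon beta, which acts back on the cell through JAK kinases and STAT factors. FES is a cytoplasmic tyrosine kinase of myeloid cells with a membrane-binding F-BAR domain and an SH2 domain, and it has been studied in TLR4 signalling. An interaction separates a gene whose response to LPS depends on the Fes genotype from a gene that differs between genotypes by the same factor with and without LPS.

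The libraries held 61016254 to 101027166 counts, and library 1 of the Fes-/- LPS group was the deepest. Levels are given as CPM, counts relative to library size after scaling with TMM factors, which were 1.35 to 1.40 in the PBS libraries and 0.707 to 0.737 in the LPS libraries. The summed level of 12 macrophage markers ran from 18000 to 28400 CPM over all libraries, and no marker was under 1 CPM in any group. Of 16 markers of neutrophils and their precursors, 11 or 12 were under 1 CPM in each group. Their sum was 173 to 245 CPM in wild-type and 111 to 186 CPM in Fes-/- libraries under LPS. Most of it was the receptor gene Csf3r, at group means of 188 and 139 CPM. The granule genes Elane, Ltf and Camp were under 1 CPM and Ngp at most 1.22 CPM in every group. Other members stood higher, with group means of 2.8 to 4.75 CPM for Mmp8, 1.29 to 3.01 for S100a8 and 1.38 to 2.39 for S100a9. Their part in the results was not tested. Markers of T and NK cells summed to at most 7.07 CPM. In such bulk RNA, fewer cells of a type and less RNA per cell cannot be told apart.

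LPS effects in both genotypes lay close together gene by gene, and the test called 3 genes, all on chromosome 7, whose response differed. Of the 15801 genes, 3 (0.019%) were called at an adjusted p under 0.05 by edgeR's quasi-likelihood test with Benjamini-Hochberg adjustment. Tsku was the gene with a higher LPS effect in Fes-/- cells (1 gene, 0.00633%), and Fes and Unc45a had a lower one (2 genes, 0.0127%). Every other gene had an adjusted p of 1 in that test. With no filter on low counts the same test called 90 genes, 79 of them off chromosome 7, in a fit that gave every gene the spread of the trend. Before adjustment, 464 genes (2.94%) had a p under 0.05, with 246 higher (1.56%) and 218 lower (1.38%). For comparison, LPS itself changed 11601 genes (73.4%) in wild-type and 11574 (73.2%) in Fes-/- cells. In wild type 34.6% of the tested genes rose and 38.8% fell, and in Fes-/- cells 34.3% rose and 38.9% fell. This split rests on the TMM factors. With no factor beyond the library total, wild-type calls were 2579 higher and 10828 lower. Directions of LPS effects given below are those under TMM scaling, unless TPM is named.

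The limit on what could have been missed follows from the intervals. The 95% interval of the interaction lay wholly within a 2-fold difference for 10507 genes (66.5%). Among the 10053 genes with at least 5 CPM in some group this was so for 93.9%, and among the 5748 genes under that level for 18.6%. The median interaction over all genes was 0.001, and the middle of the distribution, from the lower to the upper quartile, ran from -0.13 to 0.12.

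Both genotypes shared most of the response gene by gene. Under TMM scaling, LPS changed 10834 genes in the same direction in both, and 2 genes, Tsku and Prcp, in opposite directions. A further 765 genes passed the test in wild type alone and 738 in Fes-/- alone, but the difference itself was called for 1 gene of each set, Unc45a and Fes, respectively. Across the 10053 genes of at least 5 CPM, the LPS effects of both genotypes had a Pearson r of 0.993 and a Spearman rho of 0.993. This is a correlation across genes, which are not independent replicates, although the genotypes share no library.

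**Figure D1:**
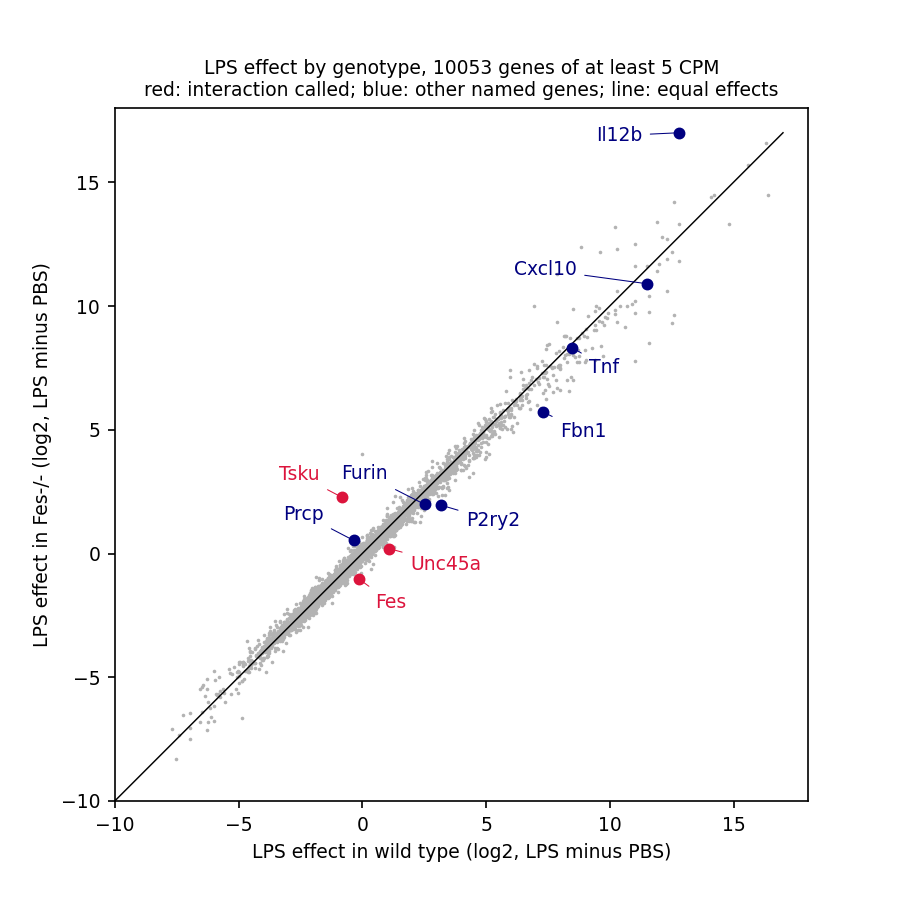
Each point is a gene with at least 5 CPM in some group (10053 genes), with its log2 LPS effect in wild type on the horizontal and in Fes-/- on the vertical axis; the line marks equal effects. Tsku (red) lies above the line and Fes and Unc45a (red) below it, the position of Il12b rests on PBS counts of 0 or 1 in Fes-/- libraries, and the lone grey point at 4.01 above the line is Gm44075, which had 0 CPM in wild type.

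The 3 called genes all lie on chromosome 7, and each is a protein-coding gene on the reverse strand of GRCm38. Fes (ENSMUSG00000053158) spans 80377756 to 80387946. Unc45a (ENSMUSG00000030533) spans 80325292 to 80341005 and starts 0.05 Mb before Fes. Tsku (ENSMUSG00000049580) spans 98350668 to 98361328 and starts 17.97 Mb after Fes. The 250 bases upstream of a transcription start of each gene are shown because these genes are the ones whose LPS response differed. They come from RefSeq on GRCm38.p6, are written 5′ to 3′ on the gene's strand, and have CpG dinucleotides in capitals. The Fes bases are chr7:80387947-80388196, those of Tsku chr7:98361329-98361578 and those of Unc45a chr7:80340220-80340469, all on the reverse strand.
Fes: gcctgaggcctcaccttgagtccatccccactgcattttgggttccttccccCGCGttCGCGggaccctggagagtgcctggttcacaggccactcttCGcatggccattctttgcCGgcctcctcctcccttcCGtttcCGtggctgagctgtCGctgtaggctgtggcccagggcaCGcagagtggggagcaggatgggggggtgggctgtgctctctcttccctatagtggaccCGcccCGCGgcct
Tsku: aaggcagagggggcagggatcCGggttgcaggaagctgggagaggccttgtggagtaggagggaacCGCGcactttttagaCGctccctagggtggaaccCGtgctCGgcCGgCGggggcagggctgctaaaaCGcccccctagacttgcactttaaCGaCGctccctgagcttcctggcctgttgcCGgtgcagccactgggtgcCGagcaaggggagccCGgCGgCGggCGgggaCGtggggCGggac
Unc45a: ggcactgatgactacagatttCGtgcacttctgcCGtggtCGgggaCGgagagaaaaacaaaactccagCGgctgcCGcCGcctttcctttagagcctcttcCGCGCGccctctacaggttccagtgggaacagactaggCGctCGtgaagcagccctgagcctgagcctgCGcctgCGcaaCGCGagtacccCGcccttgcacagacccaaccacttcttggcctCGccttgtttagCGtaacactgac
CpG is the pair at which mammalian DNA is methylated, and promoters rich in it are often active in many tissues. The Fes stretch held 13 CpG at 65.2% GC, that of Tsku 19 at 68.0% GC and that of Unc45a 19 at 60% GC. Over 32851 RefSeq promoters the median was 6 CpG, with quartiles of 2 and 16, at a median GC content of 52.4%. All 3 stretches therefore held more CpG than the median promoter.

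The same promoters were searched on both strands, in a window that adds the first 50 transcribed bases, for motifs of factors that LPS activates. The motifs were the NF-kB consensus, the AP-1 site TGANTCA and the interferon-response motif, GAAA and again GAAA after any 2 bases. No match was found in the windows of Fes, Tsku or Unc45a, nor in those of Furin and Prcp. One window per gene was searched, at the RefSeq start nearest the gene's start in GENCODE, although Tsku and Furin have 2 RefSeq starts each. The RefSeq starts of Unc45a and Prcp lie 786 and 783 bp from the GENCODE start, and the Unc45a stretch above lies inside the gene span. Of all promoters, 8.46% held the NF-kB consensus, 7.81% the AP-1 site and 3.44% the interferon-response motif. The shares were 10.4%, 5.54% and 3.38% among promoters of tested genes, 12.9%, 8.76% and 6.78% among those of genes that LPS induced, and 10.2%, 5.05% and 2.37% among those of genes that it repressed. A match or its absence describes these letters in this window.

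Fes, the gene targeted in the knockout, is the kinase itself, and its transcript was lower in every Fes-/- library than in every wild-type library. Wild-type libraries 1, 2 and 3 held 169, 189 and 179 CPM under PBS and 152, 163 and 171 CPM under LPS. Fes-/- libraries held 68.9, 66.4 and 70.5 CPM under PBS and 35.1, 33.5 and 32.9 CPM under LPS. The PBS and LPS libraries overlapped in wild type and lay far apart in Fes-/- cells. The log2 LPS effect of -0.15 ± 0.07 (SE) in wild type did not pass the test (adjusted p = 0.0744 by edgeR), whereas in Fes-/- cells Fes fell by 1.02 ± 0.07 (adjusted p = 5.67e-09). These effects depend on the TMM scaling. In mean deposited TPM, Fes fell in both genotypes, from 164 to 77 in wild type and from 64.9 to 16.3 in Fes-/- cells. The interaction was -0.87 ± 0.10 (adjusted p = 0.00556). Taken over the 9 possible LPS-to-PBS library differences in each genotype, the LPS effect ran from -0.32 to 0.02 in wild type and from -1.10 to -0.92 in Fes-/-.

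Tsku, which encodes tsukushi, a secreted leucine-rich protein that binds BMP, Wnt and TGF-beta pathway proteins, moved in opposite directions. Wild-type libraries held 2.49, 3.46 and 3.57 CPM under PBS and 1.62, 0.962 and 2.72 CPM under LPS. Fes-/- libraries held 2.47, 2.42 and 2.36 CPM under PBS and 12.9, 11.7 and 10.6 CPM under LPS. The genotypes were close under PBS, and the 3 Fes-/- libraries stood above all others under LPS. Tsku fell by 0.84 ± 0.26 on the log2 scale in wild type (adjusted p = 0.0107 by edgeR) and rose by 2.28 ± 0.25 in Fes-/- cells (adjusted p = 1.28e-06). The interaction was 3.12 ± 0.36 with an interval from 2.34 to 3.89 (adjusted p = 0.00556). The wild-type PBS and LPS libraries overlapped, and wild-type LPS library 2 held the lowest level of all 12.

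Unc45a, which encodes a chaperone that helps myosin fold together with HSP90, was induced in wild type under TMM scaling. Its wild-type libraries held 13.8, 14.4 and 15.3 CPM under PBS and 29.1, 32.5 and 31.8 CPM under LPS. Fes-/- libraries held 13.5, 12.3 and 14.9 CPM under PBS and 15.7, 16.0 and 14.8 CPM under LPS. The genotypes overlapped under PBS, and every wild-type LPS library stood above every Fes-/- one. Unc45a rose by 1.10 ± 0.09 in wild type (adjusted p = 2.92e-08 by edgeR), and its effect of 0.19 ± 0.09 in Fes-/- cells did not pass the test (adjusted p = 0.0632). These effects depend on the scaling too. In mean deposited TPM, Unc45a went from 7.26 to 8.11 in wild type and fell from 7.02 to 4.09 in Fes-/- cells. The interaction was -0.91 ± 0.13 (adjusted p = 0.0215). This call is the least firm of the 3, since it was lost without any one of 8 of the 12 libraries, with adjusted p of 0.0727 to 0.122.

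**Figure D2:**
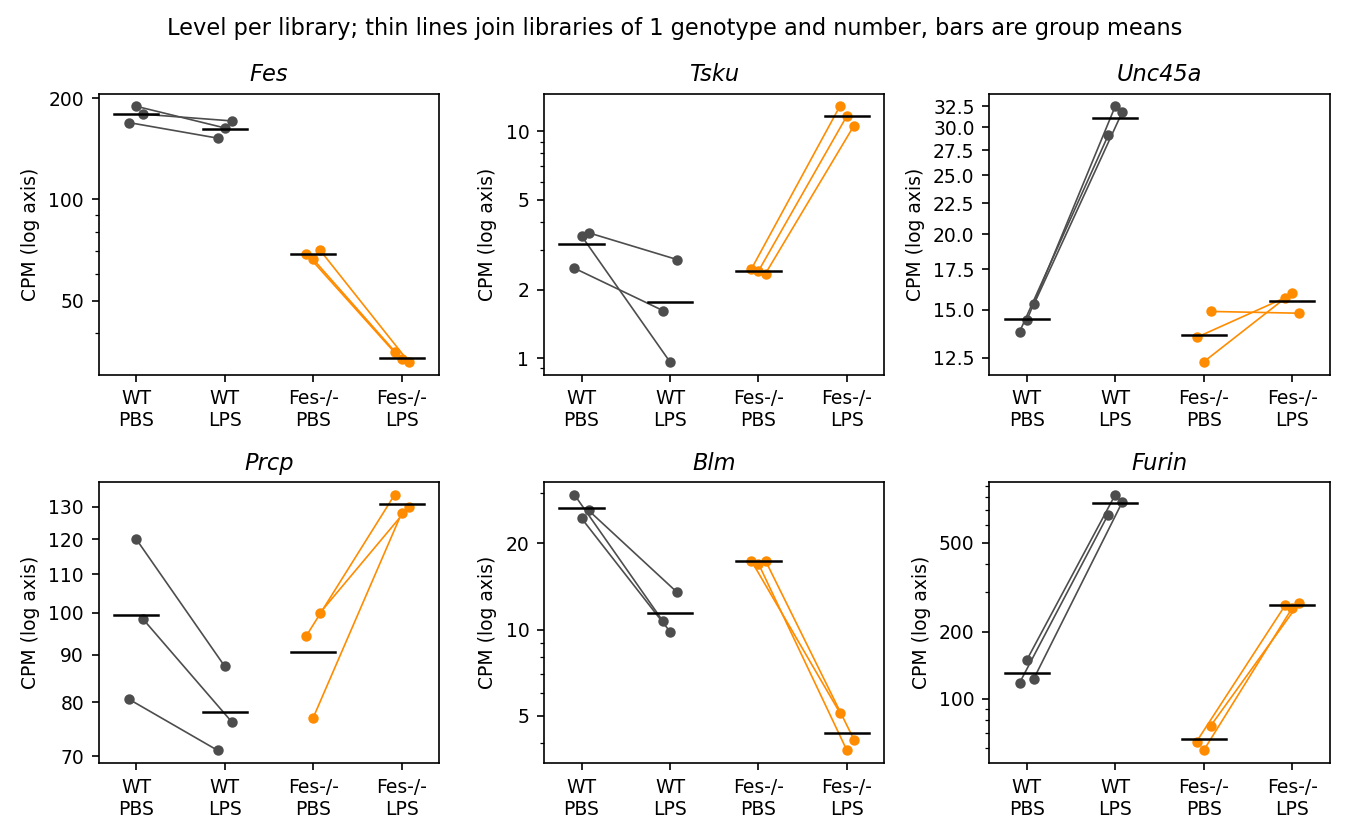
CPM on a log axis for 6 chromosome 7 genes in the 4 groups; points are libraries, thin lines join the PBS and LPS library of the same genotype and number, and black bars are group means. In Tsku the 3 Fes-/- LPS libraries (10.6 to 12.9 CPM) stand above all others, and in Unc45a the 3 wild-type LPS libraries (29.1 to 32.5 CPM) do.

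Prcp, which encodes a lysosomal peptidase that cuts after proline, was the other gene whose LPS effects had opposite signs and passed the test in both genotypes. Its wild-type libraries held 80.6, 120 and 98.3 CPM under PBS and 71.0, 87.5 and 76.2 CPM under LPS. Fes-/- libraries held 94.3, 77.0 and 100 CPM under PBS and 134, 128 and 130 CPM under LPS. The Fes-/- LPS libraries lay above all others, while the remaining groups overlapped. The LPS effect was -0.35 ± 0.13 in wild type (adjusted p = 0.0287 by edgeR) and 0.53 ± 0.13 in Fes-/- cells (adjusted p = 0.00236). These signs depend on the TMM scaling. In mean deposited TPM, Prcp fell in both genotypes, from 84 to 34.4 in wild type and from 78.9 to 57.9 in Fes-/-. The interaction of 0.88 ± 0.19 had an unadjusted p of 0.00037 and was not called, but it was called when PBS and LPS libraries of the same number were treated as pairs (adjusted p = 0.0159). The paired fit called 4 genes (0.0253%), Prcp with the 3 above, and 558 genes (3.53%) had an unadjusted p under 0.05. Part of the Prcp transcript matches Gm26862 at 95.8% over 237 bp, so its counts could be split.

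Among the 19 tested genes of a list of those beside Fes, 1 was called (Unc45a), and 6 (31.6%, against 2.94% of all genes) had an unadjusted p under 0.05. Of the 6, Unc45a, Blm, Furin and Sema4b had a lower LPS effect in Fes-/- cells and Hddc3 and Ngrn a higher one. The list's median interaction was -0.08. Furin, which starts 0.01 Mb from Fes, encodes the convertase that cuts TGF-beta and other precursors to their active forms. Its wild-type libraries held 118, 149 and 123 CPM under PBS and 670, 822 and 763 CPM under LPS, and its Fes-/- libraries 64.2, 58.6 and 75.6 CPM and 262, 255 and 269 CPM. LPS raised Furin in both genotypes, by 2.53 ± 0.12 and 1.98 ± 0.11, and the Fes-/- libraries were the lower ones in both treatments. The interaction was -0.55 ± 0.16 (unadjusted p = 0.00341), so most of the genotype difference in Furin was present without LPS.

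Blm, the RecQ helicase lost in Bloom syndrome, fell under LPS in both genotypes. Its wild-type libraries held 29.6, 24.5 and 26.1 CPM under PBS and 10.7, 9.84 and 13.5 CPM under LPS, and its Fes-/- libraries 17.4, 17 and 17.4 CPM and 5.12, 3.78 and 4.12 CPM. Within each treatment the genotypes did not overlap. The LPS effects were -1.23 ± 0.13 and -1.99 ± 0.14, with an interaction of -0.75 ± 0.18 (unadjusted p = 0.00106). Hddc3, which encodes a hydrolase of NADPH and bacterial alarmone nucleotides, stood between 2.62 and 2.91 CPM in wild-type and between 6.27 and 7.11 CPM in Fes-/- PBS libraries, and its interaction was 0.77 ± 0.28 (unadjusted p = 0.0149), against -0.04 on the log2(TPM + 1) scale. Man2a2, a Golgi mannosidase gene, had LPS effects of -1.18 ± 0.17 and -1.08 ± 0.17 and an interaction of 0.10 ± 0.24. Hddc3 and Man2a2 lie on opposite strands and share 427 bp of exon, so their reads cannot be told apart there if the counting ignored strand. The Hddc3 transcript also matches Gm18310 at 100% over 1070 bp. Within that match, reads of Hddc3 and Gm18310 cannot be told apart by sequence, whether or not strand was used. The genotype difference of Man2a2 was -1.68 under PBS and -1.58 under LPS, that of Hddc3 1.29 and 2.06.

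Chromosome 7 held 1222 of the tested genes (7.73%). It held 8 of the 10 genes with the smallest interaction p, 10 of the first 20 and 23 of the first 100. Outside chromosome 7, 14579 genes were tested, and edgeR with its filter on low counts called none of them. DESeq2 called 1 gene there (Fbn1), and limma-trend on log2(TPM + 1) and on log2(TPM + 0.1) called 1 (Gm44075). Of the 14579 genes, 414 (2.84%) had an unadjusted p under 0.05 by edgeR. On chromosome 7 the share was 4.09%, and it was uneven. From 5 Mb before to 5 Mb after Fes it was 14.3% (12 of 84 genes), and from 5 to 25 Mb after Fes 9.93% (14 of 141). From 20 to 100 Mb before Fes it was 2.23% (13 of 582), and beyond 25 Mb after Fes 2.62% (10 of 382). The borders of these windows were chosen after the values were seen.

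**Figure D3:**
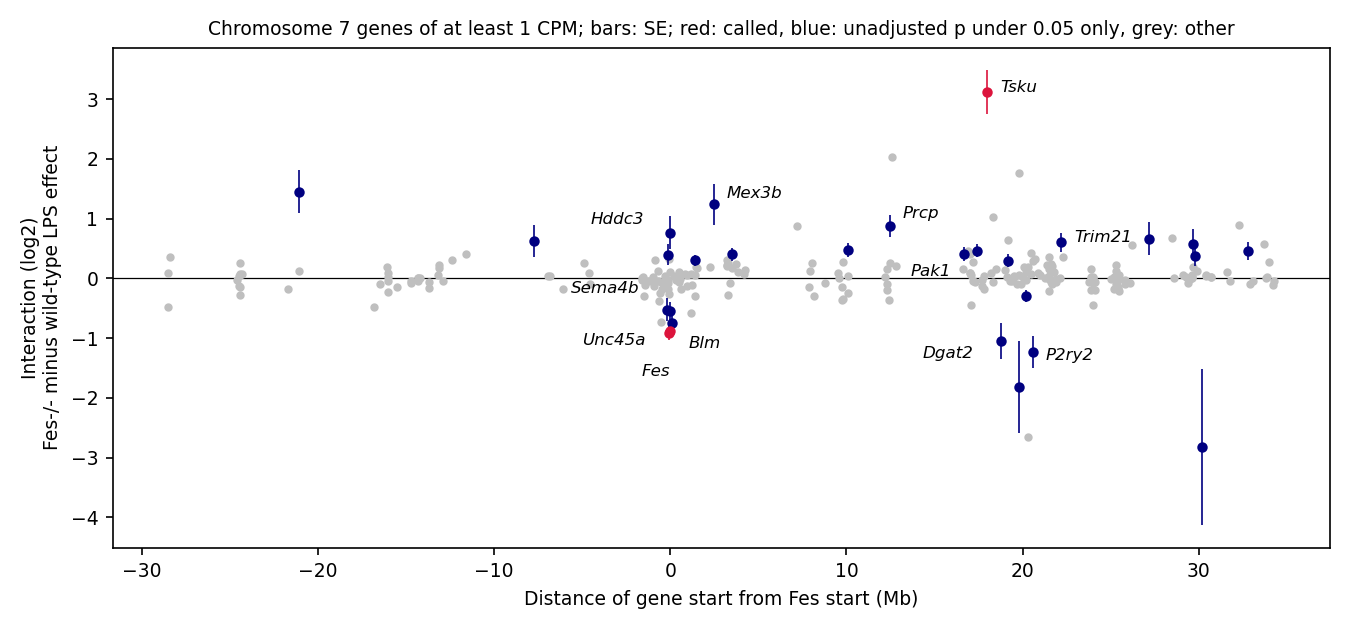
Interaction (log2) of 262 chromosome 7 genes of at least 1 CPM against the distance of their start from that of Fes in Mb; bars are SE, red marks called genes, blue an unadjusted p under 0.05 only. Unc45a and Fes sit together at 0, Tsku at 17.97 Mb, and the blue points (Prcp, Pak1, P2ry2, Dgat2 and others) lie mostly between Fes and 25 Mb after it.

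Of the 20 genes with the smallest interaction p, 10 in each direction, among named genes of at least 5 CPM, 14 were on chromosome 7. P2ry2, a receptor for extracellular ATP and UTP, held 3.85, 2.52 and 3.49 CPM in wild-type PBS libraries and 6.79, 8.29 and 5.77 CPM in Fes-/- ones. Under LPS it held 29.5, 31.8 and 28.8 CPM in wild type and 24.3, 21.9 and 34.6 CPM in Fes-/-, where the groups overlapped. Its LPS effects of 3.19 ± 0.20 and 1.95 ± 0.19 gave an interaction of -1.23 ± 0.26 (unadjusted p = 0.000433). The genotypes thus stood apart in the PBS libraries, whereas for Tsku and Unc45a they stood apart in the LPS libraries. Dgat2, the last enzyme of triglyceride synthesis, held 0.397 to 0.783 CPM in wild-type and 2.35 to 2.85 CPM in Fes-/- PBS libraries. Under LPS it held 2.57 to 3.4 CPM and 5.31 to 7.21 CPM, so the Fes-/- libraries were the higher ones in both treatments, and the interaction was -1.05 ± 0.30.

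Pak1, a kinase that RAC and CDC42 activate, held 74.6 to 78.7 CPM in wild-type and 67.0 to 75.1 CPM in Fes-/- PBS libraries. Under LPS it held 40 to 48.2 CPM in wild type and 55.0 to 56.8 CPM in Fes-/-, so the groups separated only there. On the log2 scale Pak1 fell by 0.80 ± 0.08 in wild type and fell by 0.33 ± 0.08 in Fes-/- cells, an interaction of 0.47 ± 0.11. Gab2, a scaffold protein of receptor signalling, had an LPS effect of 0.03 ± 0.09 in wild type and rose by 0.44 ± 0.09 in Fes-/- cells (interaction 0.41 ± 0.12). That rise depends on the TMM scaling. In mean deposited TPM, Gab2 fell from 53.4 to 28.4 in wild type and from 43.9 to 30.2 in Fes-/-. Tmem126b, an assembly factor of respiratory complex I, fell from 24.9 to 26.6 CPM to 6.28 to 6.41 CPM in wild type and from 19.3 to 21.6 CPM to 6.80 to 7.44 CPM in Fes-/- (0.47 ± 0.12). The actin-bundling gene Tlnrd1 (0.40 ± 0.11) and the RNA-binding gene Mex3b (1.24 ± 0.34) had higher interactions too. None of these 5 genes was called.

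Trim21, a cytosolic antibody receptor and ubiquitin ligase 22.18 Mb after Fes, had an interaction of 0.60 ± 0.16. Its transcript matches the pseudogene Gm44075 on chromosome 6 at 97.7% over 215 bp. Gm44075 had 0 CPM in wild type under both treatments and 1.67 and 26.9 CPM in Fes-/- under PBS and LPS. Its counts and those of Trim21 are therefore uncertain, and no fold of Gm44075 against wild type can be given. Trim21 itself held 30.2 and 619 CPM in Fes-/- under PBS and LPS, and the match covers 215 of the 2793 bp of its longest transcript.

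The rest of that ranking lies on other chromosomes, and none of these genes was called by edgeR. Fbn1, which encodes the matrix protein fibrillin-1, held 0.155, 0.115 and 0.0669 CPM in wild-type and 0.475, 0.428 and 0.234 CPM in Fes-/- PBS libraries. Under LPS it held 20.4, 16.3 and 18.9 CPM and 21.1, 20.8 and 18.2 CPM, so the induced levels overlapped and the resting levels did not. Its interaction was -1.61 ± 0.35 (unadjusted p = 0.000378), and DESeq2, which called 5 genes (0.0176%), called it (adjusted p = 0.033). The value rests on low PBS counts, 16, 10 and 6 in wild-type and 41, 42 and 20 in Fes-/- libraries. On the log2(TPM + 1) scale it was -0.04, and on the log2(TPM + 0.1) scale -0.67. Tmem26 (-1.25 ± 0.37) and Ccdc57 (-0.79 ± 0.24) had lower LPS effects in Fes-/- cells. The stress gene Gadd45a (0.77 ± 0.20) and Heca (0.52 ± 0.13) had higher ones.

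Beyond single genes, 26 lists of genes that LPS or macrophage state is known to involve were read for members whose LPS effect depended on genotype. Apart from Fes in the list of FES and SRC family kinases and Unc45a among the genes beside Fes, no list member was called. The list medians lay between -0.255 and 0.117. Of the reception and signalling list around TLR4, 1 of 28 members had an unadjusted p under 0.05, Ticam2, the TRIF-linked adaptor TRAM (0.60 ± 0.22). Its wild-type libraries held 27.4, 39.2 and 31.2 CPM under PBS and 14.4, 9.96 and 13.3 CPM under LPS, and its Fes-/- libraries 26.5, 23.9 and 30.8 CPM and 15.2, 18.1 and 14.2 CPM. For 27 of the 28 the interval lay within a 2-fold difference. Among 22 genes of NF-kB and its feedback the one such member was the inhibitor Nfkbie (-0.52 ± 0.18), and among 28 immediate-early genes they were Ier2 (0.48 ± 0.17) and Egr1 (0.66 ± 0.29). These shares, 3.57%, 4.55% and 7.14%, stand beside 2.94% over all genes.

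The secreted outputs of the response had wide intervals. Of 23 inflammatory cytokines, 1 member had an unadjusted p under 0.05 and a higher LPS effect in Fes-/- (Osm, oncostatin M, 0.59 ± 0.21), and 2 had a lower one (Tnfsf9, -1.17 ± 0.42, and Inhba, -1.05 ± 0.42, which was 0.01 on the log2(TPM + 1) scale). For 7 of the 23 the interval lay within a 2-fold difference. Tnf held 8.57, 3.08 and 9.02 CPM in wild-type and 11.8, 15.2 and 6.52 CPM in Fes-/- PBS libraries. Under LPS it held 2810, 1920 and 2690 CPM and 3200, 4770 and 2750 CPM. The groups overlapped under both treatments, and the interaction was -0.17 ± 0.58. Il10, the main brake on this response, was far better determined, with 306 to 443 CPM and 272 to 346 CPM under LPS and an interaction of 0.02 ± 0.21.

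Il12b, the shared subunit of IL-12 and IL-23, held 673, 145 and 611 CPM in wild-type and 1070, 1820 and 676 CPM in Fes-/- LPS libraries. The lowest Fes-/- library, at 676 CPM, stood just above the highest wild-type one, at 673 CPM. Under PBS it had 5, 6 and 7 counts in wild-type and 1, 0 and 1 counts in Fes-/- libraries, so its fitted interaction of 4.17 ± 3.13 rests on a handful of counts and is no fold. Il6 likewise had 1, 0 and 3 against 4, 0 and 0 counts under PBS. It held 1380, 989 and 1380 CPM in wild-type and 1580, 2050 and 1300 CPM in Fes-/- LPS libraries, where the groups overlapped. Ifnb1 had 0 counts in all wild-type and 1, 1 and 0 in Fes-/- PBS libraries, so no interaction is given. Under LPS it held 11.7, 6.03 and 9.0 CPM and 12.7, 22.1 and 8.41 CPM, again with overlap. Of 24 chemokines, Ccl4 had a lower (-0.47 ± 0.21) and Cxcl9 a higher interaction (1.36 ± 0.61) at an unadjusted p under 0.05. Nos2, the inducible nitric oxide synthase, had 0, 0 and 8 counts in wild-type and 18, 10 and 3 in Fes-/- PBS libraries and overlapped under LPS (interaction -1.95 ± 0.90, unadjusted p = 0.0513).

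Genes by which macrophages prime T cells, the question in the series title, had no called member. Of 24 genes of MHC class I and peptide loading none had an unadjusted p under 0.05, their median interaction was -0.003, and for 23 the interval lay within a 2-fold difference. B2m, the light chain of class I, rose from 2000 to 2290 CPM to 3580 to 3790 CPM in wild type and from 1860 to 1900 CPM to 3120 to 3710 CPM in Fes-/- (interaction 0.07 ± 0.13). The heavy chain H2-K1 (0.07 ± 0.18) and the peptide transporter Tap1 (-0.02 ± 0.19) also had intervals within a 2-fold difference. None of 12 class II genes had an unadjusted p under 0.05 either, at a median of 0.117. Cd40, the receptor for CD40 ligand on T cells, went from 6.49 to 9.46 CPM to 1740 to 1770 CPM in wild type and from 8.84 to 10.6 CPM to 1750 to 1910 CPM in Fes-/- (-0.22 ± 0.16). Its groups overlapped under both treatments. The B7 molecules Cd80 (0.38 ± 0.29, interval -0.24 to 1.01) and Cd86 (-0.09 ± 0.42, interval -1.02 to 0.85) were less well determined. Of 23 co-stimulation genes, 3 had an unadjusted p under 0.05, lower for Tnfsf9 and Tnfsf14 (-0.73 ± 0.30) and higher for Slamf7 (0.47 ± 0.22).

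**Figure D4:**
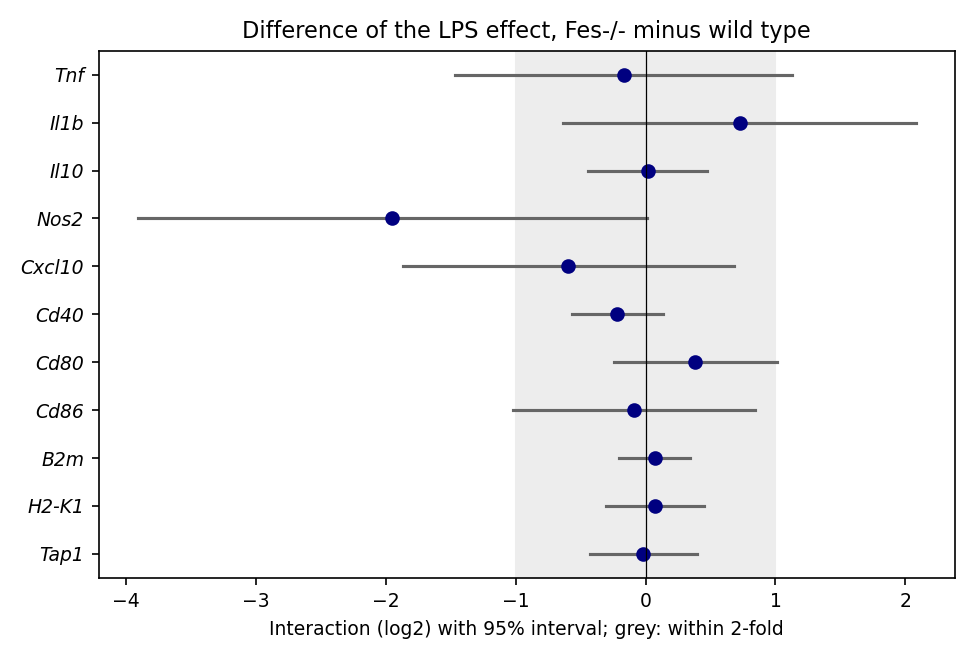
Interaction (log2, point) with its 95% interval (line) for 11 cytokine, chemokine, co-stimulation and class I genes; the grey band marks a difference of less than 2-fold. Il10, Cd40, B2m, H2-K1 and Tap1 have intervals inside the band, whereas those of Tnf, Il1b, Nos2, Cxcl10, Cd80 and Cd86 reach beyond it.

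In the interferon arm, 1 of 53 interferon-stimulated genes had an unadjusted p under 0.05 (1.89%), Trim21, whose counts are uncertain. The median interaction of the list was -0.06, with 14 of the 53 above 0, and it ran from -0.288 without Fes-/- PBS library 3 to 0.144 without Fes-/- PBS library 1. Among 23 IRF, STAT and JAK genes, the myeloid factor Irf8 had a higher interaction (0.57 ± 0.17). Its wild-type libraries held 100, 129 and 111 CPM under PBS and 640, 557 and 661 CPM under LPS, and its Fes-/- libraries 99.1, 87.6 and 98.2 CPM and 728, 919 and 663 CPM. Under LPS the lowest Fes-/- library, number 3, stood just above the highest wild-type one. Ifnar1, a chain of the interferon receptor, had a lower interaction (-0.40 ± 0.17).

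Most lists held members on both sides of 0, and the split was uneven in several. Over all genes 50.2% had an interaction above 0. Members above 0 numbered 25 of 32 for lysosome genes, 24 of 32 for the cell cycle, 10 of 12 for class II, 4 of 15 for polyamine genes, 5 of 24 for glycolysis and HIF-1 and 4 of 23 for cholesterol synthesis, and none of these was called. The cholesterol list had the lowest median, -0.255, which was -0.089 without wild-type LPS library 2. Fdps, which makes farnesyl diphosphate, had LPS effects of -0.50 in wild type and -1.39 in Fes-/- (-0.89 ± 0.30), at 1.2 to 1.68 CPM in wild-type PBS libraries. Fdft1, squalene synthase, held 16.7 to 20.8 CPM under PBS and 15.2 to 22.8 CPM under LPS in wild type, and 21.0 to 24.8 CPM and 14.3 to 16.2 CPM in Fes-/- (-0.46 ± 0.19). Hmgcs1, which makes HMG-CoA for the pathway, held 41.4, 98.7 and 46.8 CPM in the wild-type LPS libraries, so library 2 stood apart there (-0.86 ± 0.42). That library was also the highest of the 3 for Fdft1, and without it the interaction was -0.36 for Hmgcs1, -0.27 for Fdft1 and -0.84 for Fdps. The glycolysis and HIF-1 genes had a median of -0.095, which ran from -0.147 to 0.031 without 1 library. The glucose transporter Slc2a1 (-0.59 ± 0.22), the lactate exporter Slc16a3 (-0.45 ± 0.16) and Hif1a (-0.43 ± 0.17) had an unadjusted p under 0.05. Under TMM scaling LPS raised all 3 in both genotypes. In wild-type LPS libraries Slc2a1 held 89.7, 104 and 109 CPM, and in Fes-/- ones 82.0, 80.8 and 86.0 CPM, without overlap.

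Clock and growth-restraint genes, which LPS mostly lowered, had 4 of 23 members (17.4%, against 2.94% of all genes) with an unadjusted p under 0.05. The clock activator Arntl held 4.19 to 4.67 CPM in wild-type and 4.97 to 5.50 CPM in Fes-/- LPS libraries, with an interaction of 0.46 ± 0.15, and it lies on chromosome 7, 32.83 Mb after Fes. The clock repressor Nr1d1 (1.49 ± 0.57) and the mTORC1 inhibitor Sesn1 (0.75 ± 0.26) had higher interactions as well, and the repressor Bhlhe41 a lower one (-0.73 ± 0.25). Nr1d1 rests on low counts under LPS, 12, 12 and 9 in wild-type and 36, 27 and 29 in Fes-/- libraries. Its interaction was 0.47 on the log2(TPM + 1) scale. Sesn1 fell from 258 to 324 CPM to 1.58 to 2.07 CPM in wild type and from 197 to 276 CPM to 2.1 to 3.32 CPM in Fes-/-. The chemokine receptor Ccr7, which guides cells to lymph nodes, had an interaction of 1.60 ± 0.50 at 0.912 to 1.49 CPM in wild-type and 1.63 to 2.01 CPM in Fes-/- LPS libraries. The 32 lysosome, 32 cell cycle, 26 inflammasome and death, 15 polyamine and 24 heat shock and unfolded protein genes had no member with an unadjusted p under 0.05.

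Genes were also grouped by their LPS effect averaged over both genotypes, which was called for 12731 genes (80.6%), higher under LPS in 37.7% and lower in 42.9% of those tested. The 3132 genes called and raised at least 2-fold had a median interaction of -0.031, with 68 higher and 97 lower at an unadjusted p under 0.05. The 3975 genes called and lowered at least 2-fold had a median of 0.030, with 101 higher and 55 lower. The medians were within 0.031 of 0, and without 1 library they ran from -0.071 to 0.025 for raised and reached at most 0.067 for lowered genes. The spread between library pairs was larger. For raised genes the median effect was 2.23, 2.35 and 2.31 in the 3 wild-type pairs and 2.20, 2.20 and 2.31 in the 3 Fes-/- pairs, and for lowered genes -1.80, -1.87 and -1.77 against -1.75, -1.80 and -1.82. The pairs of both genotypes overlapped, and the SD between pairs was 0.062 and 0.044. None of the 3 called genes belonged to these groups, since the effects of Fes, Tsku and Unc45a averaged less than 2-fold.

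A test-free count gave a similar picture. For 195 genes (1.23%) the 9 library differences of one genotype did not overlap the 9 of the other, with 113 higher (0.715%) and 82 lower (0.519%) in Fes-/-. Of the 195, 34 lay on chromosome 7 (2.78% of its genes), against 161 elsewhere (1.10%). In the window from 5 Mb before to 5 Mb after Fes, 10 of 84 genes (11.9%) did not overlap, and from 5 to 25 Mb after it, 13 of 141 (9.22%). A total of 5 genes rose in all 9 differences of one genotype and fell in all 9 of the other, none of them on chromosome 7. Of these, Jmjd6, a nuclear oxygenase gene on chromosome 11, was the one with at least 5 CPM (interaction -0.48, unadjusted p = 0.00898).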

How the data were processed

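Per the labels, RNA was purified with Trizol and poly-A-enriched for sequencing. The submitters' processing notes name the aligner STAR (2.7.8a), DESeq2 (1.34.0), Picard (2.9.0) and R (4.1.12), and the builds mm9 and GRCm38 without roles. How reads were counted is not given. The deposited counts per gene were used as raw whole numbers. The deposited TPM values, which the authors scaled by gene length, served as an alternative. The gene length implied by counts and TPM lay within 1% of the GENCODE M21 exon length on GRCm38 for 9353 of 9487 genes (98.6%), so positions were taken from there.

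Counts of all 12 libraries (61016254 to 101027166) were fitted in R 4.3.3 with edgeR 4.0.16 (filterByExpr over the 4 groups, TMM factors, 1 mean per group, robust quasi-likelihood F tests, 8 residual degrees of freedom). P-values were two-sided, adjusted over 15801 genes (Benjamini-Hochberg), and a gene was called at an adjusted p under 0.05. Library differences used log2 CPM with a prior count of 2. Gene groups by response required a called average LPS effect of at least 1 on the log2 scale, which does not use the interaction. The test was checked on simulated data.

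Named genes were Fes, the called genes, the 10 smallest interaction p in each direction among named genes of at least 5 CPM in some group, per list at most 3 members of smallest p and 20 fixed readout genes; some genes that met this rule are not reported here. Jmjd6, Gm44075, Sema4b and Ngrn were named after their values were seen. The 35 lists (655 entries, 643 genes, 627 tested) come from general knowledge of macrophages. The members, lists, readout genes and tests were chosen with earlier results of these data known.

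The replicate numbers pair the PBS and LPS library of 1 genotype: over 8391 genes, deviations from the group means of same-numbered libraries correlated at 0.26 to 0.447 in all 6 pairs, and each library correlated best with its own number. The labels do not say what a number marks. Across genotypes the correlation was -0.618 to -0.152, so the numbers do not pair genotypes.

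The alternatives were DESeq2 1.42.0, RLE factors, no factor, no filter, at least 1 CPM in 3 libraries, limma-trend 3.58.1 on log2(TPM + 1) and log2(TPM + 0.1), replicate blocks, fitting without robust dispersion and each library left out. With no factor beyond the library total the median LPS effect moved from -0.07 to -0.98 in wild type and from -0.08 to -1.01 in Fes-/-, and the median interaction from 0.001 to -0.021. LPS calls in wild type were then 2579 higher and 10828 lower, against 5464 and 6137 with TMM. Transcripts were compared with BLAST 2.17.0 (at least 95% identity over 200 bp). RefSeq promoters were found for 79 of 106 named genes by symbol. Figures used Python 3.11.15 with matplotlib 3.10.9.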

Additional observations from a re-analysis of the deposited data

Results flagged for a closer look

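The LPS effect differed between the genotypes, by the interaction test of edgeR adjusted over all genes, for 3 genes. The difference, Fes-/- minus wild type, was 3.12 on the log2 scale for Tsku, -0.87 for Fes and -0.91 for Unc45a. Under TMM scaling, Tsku moved in opposite directions in both genotypes, Fes passed the LPS test in Fes-/- cells alone and Unc45a in wild-type cells alone. The LPS effect within 1 genotype depends on that scaling. In mean deposited TPM, Fes fell in wild type too (164 to 77). Unc45a went from 7.26 to 8.11 in wild type and from 7.02 to 4.09 in Fes-/- cells. Fes and Tsku were called in all 12 fits that left out 1 library, and Unc45a in 4 of them.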

How the results depend on the processing

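Each library held at least 61016254 counts, and the interval lay within a 2-fold difference for 18.6% of genes under 5 CPM in every group, against 93.9% of the others. Fes and Tsku were called under every alternative run, and Unc45a under every one that kept all libraries except a replicate block across genotypes (adjusted p = 0.0883). The count of 3 called genes moved to 5 with DESeq2 (adding Fbn1 and P2ry2). It moved to 6 with log2(TPM + 1) and to 5 with log2(TPM + 0.1), with Gm44075 among the added genes in both. With no filter on low counts it moved to 90. In that last fit the estimated prior degrees of freedom were infinite, against a median of 6.31, so that every gene took the trend's spread. It called 27 more of the genes chosen by the naming rule. With the replicate block by genotype and number, 4 genes were called, Prcp in addition (adjusted p = 0.0159), and 558 (3.53%) had an unadjusted p under 0.05, and the block changed no other call named here. Leaving out 1 library gave 2 to 3 calls. The count of 195 genes whose ranges did not overlap moved to 129 with at least 1 CPM in 3 libraries and to between 315 and 597 without 1 library, where fewer differences make a gap easier.

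Interactions that were not called changed sign under some settings, among them Ifnb1 (-1.71 in the reported fit), Inhba (-1.05) and Hddc3 (0.77). With log2(TPM + 1) the value was -0.03 for Il10, 0.56 for Ifnb1, -0.04 for Hddc3 and 0.01 for Inhba, and with log2(TPM + 0.1) -0.02 for Il10 and 0.13 for Ifnb1. Il10 was -0.00 with no factor and Tap1 0.03 with no filter. Leaving out 1 library turned the sign in 22 cases, and the values over the 12 such fits ran from -0.44 to 0.19 for Tnf, -0.84 to 3.58 for Il6, -0.09 to 0.21 for Il10, -0.36 to 0.25 for Cd86, -0.03 to 0.23 for H2-K1, -0.16 to 0.17 for Tap1, -0.11 to 0.29 for Man2a2, -0.55 to 0.08 for H2-Q6 and -0.27 to 0.07 for Nlrc5. The cause was not tested. The median interaction of LPS-induced genes, -0.031, ran from -0.071 to 0.025 without 1 library, and that of all genes went from 0.001 to -0.021 with no factor.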
